A study of Mus musculus with 19 samples.

Results

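The loss of c-Rel, an NF-kB subunit encoded by Rel, was examined in activated regulatory T cells (aTregs), the CD62L low, CD44 high fraction of Foxp3-expressing CD4 T cells. Members were taken by their labels alone: 2 libraries of c-Rel-deficient aTregs, replicate numbers 2 and 3, were set against 3 libraries of wild-type (WT) aTregs, numbers 1, 2 and 3. These are 5 of the 19 libraries of the series, and the comparison runs over all 14818 genes with library values, of which 10656 passed a filter on low values. All mice were C57Bl/6. The c-Rel-deficient cells came from mice with both Foxp3-CRE-YFP and c-Rel F/F, and the WT cells from mice with Foxp3-CRE-YFP alone. Every library of the series therefore carries the Foxp3-CRE-YFP allele, including the WT libraries. Cre is driven from Foxp3, so that Rel is removed only after a cell has turned on Foxp3, and the YFP gate keeps cells that express it at the time of sorting. The aTregs were sorted from spleen and lymph nodes, and their RNA was extracted without culture or treatment. The labels give no age or sex, and do not say whether libraries of a group are separate animals, so that p-values measure only the spread between these samples.

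Other libraries are used below only beside this comparison. They are c-Rel-deficient resting Tregs (rTregs, CD62L high, CD44 low, n = 2) with WT rTregs (n = 2), p65-deficient aTregs and rTregs, from mice with p65 F/F and the same Cre (n = 2 each), and stimulated Tregs. Stimulated Tregs are c-Rel-deficient (n = 2) or WT with water (n = 2), cultured for 16 h with anti-CD3, anti-CD28 and interleukin 2, and form a table of their own that shares no library with the sorted set.

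NF-kB factors are dimers drawn from 5 subunits, p65 (Rela), c-Rel (Rel), RelB, p50 (from Nfkb1) and p52 (from Nfkb2), and are held in the cytoplasm by inhibitors until a receptor signal frees them. In T cells c-Rel acts downstream of the antigen receptor and CD28. It is known for its part in the thymic generation of Tregs, where it binds an enhancer of Foxp3, and NF-kB as a whole is known to be needed for Tregs to take on the activated, tissue-seeking state. The effector program of aTregs includes inhibitory receptors, chemokine receptors and receptors of the tumour necrosis factor (TNF) family.

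Promoters are shown for 3 of the genes that fell, because each holds a match to the NF-kB consensus site, printed in capitals. The search used a 10-base consensus on both strands, with overlapping matches merged. The windows are RefSeq promoters of GRCm38.p6, from 250 bases before to 50 after the annotated start, written 5′ to 3′ on the strand of the gene. Rel lies on chr11:23770920-23771219 (minus strand), Tnfrsf8 on chr4:145315115-145315414 (minus strand) and Slc7a10 on chr7:35186135-35186434 (plus strand).
Rel: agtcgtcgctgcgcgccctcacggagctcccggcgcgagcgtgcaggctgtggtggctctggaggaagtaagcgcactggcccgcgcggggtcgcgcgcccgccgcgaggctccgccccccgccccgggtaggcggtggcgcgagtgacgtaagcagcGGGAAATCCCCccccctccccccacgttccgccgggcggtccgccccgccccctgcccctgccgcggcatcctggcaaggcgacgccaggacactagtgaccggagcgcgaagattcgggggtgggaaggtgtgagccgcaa
Tnfrsf8: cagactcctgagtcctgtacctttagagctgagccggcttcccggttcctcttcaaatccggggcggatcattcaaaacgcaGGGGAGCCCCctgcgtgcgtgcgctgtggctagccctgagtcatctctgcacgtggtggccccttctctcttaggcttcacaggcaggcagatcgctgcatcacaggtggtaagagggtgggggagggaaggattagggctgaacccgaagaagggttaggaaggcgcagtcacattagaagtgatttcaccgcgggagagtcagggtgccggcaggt
Slc7a10: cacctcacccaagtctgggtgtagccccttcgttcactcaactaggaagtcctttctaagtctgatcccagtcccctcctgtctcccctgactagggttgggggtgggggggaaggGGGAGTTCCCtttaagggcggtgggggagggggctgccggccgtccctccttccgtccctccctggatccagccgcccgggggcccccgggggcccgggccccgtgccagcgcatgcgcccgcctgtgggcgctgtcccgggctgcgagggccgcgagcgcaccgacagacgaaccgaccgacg
The match begins 92 bases before the start of Rel, 168 before that of Tnfrsf8 and 134 before that of Slc7a10. Of the 18 genes called lower below, 13 had a promoter in the table, and 4 of these 13 (the 3 shown and Slc24a3) held a match. Among these 4 is Rel, the gene that Cre removes, so that its fall is given by the genotype whatever its promoter holds. A match was found in 4.51% of all 32851 promoters and for 504 of the 8208 tested genes with a promoter (6.14%). Among the 59 genes called higher, 46 had a promoter and 3 of these held a match. A match is a string of letters and says nothing of binding.

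Values are RPKM, read counts scaled to gene length and sequencing depth, adjusted in the deposited sorted table by replicate number in a way the headers do not describe. Differences are group means of log2(RPKM + 0.5), c-Rel-deficient minus WT, a scale that understates changes of weak genes. Values below 0, which the adjustment leaves, were set to 0 for logs. Libraries of the same number share tied values, which leaves it possible that a constant was added per gene and number. Such a constant would cancel in RPKM differences within a number, but it would change the log2 differences of weak genes within a number and all differences between numbers. Number 3 holds only c-Rel-deficient aTreg 3 and WT aTreg 3, and their levels lie towards those of resting cells. Over 235 activation genes defined further below, the median of WT aTreg 3 against the mean of WT aTregs 1 and 2 was -0.58 on the log2 scale. The median of c-Rel-deficient aTreg 3 against c-Rel-deficient aTreg 2 was -0.45 over the same genes. Whether the sort or the adjustment gave these levels cannot be told apart with 2 libraries, so differences within number 2 and within number 3 stand beside the pooled ones. In the 5 libraries 10149 to 10317 genes reached 1 RPKM. Read totals are not in the table, and whole-read steps put c-Rel-deficient aTreg 2 at 0.821 of the depth of WT aTreg 2, while the steps between different numbers could not be read.

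The targeted gene followed its label. The gene Rel spans chromosome 11 from 23736847 to 23770970 on the minus strand (GRCm38). Its level was 1.56 and 3.01 RPKM in c-Rel-deficient aTregs 2 and 3, against 18.6, 21.3 and 22.0 RPKM in WT aTregs 1, 2 and 3. Every c-Rel-deficient library lay far below every WT library. By limma the log2 difference was -2.97 (SE 0.42) with an adjusted p of 0.103. The authors' deposited table gave -2.73 (adjusted p = 1.52e-09). The other 4 NF-kB subunits overlapped between the groups. Rela (p65) was at 65.5 and 65.8 RPKM in c-Rel-deficient aTregs, against 68.3, 62.3 and 64.2 RPKM in WT aTregs, so that the groups overlapped. Nfkb1 differed by -0.11, Nfkb2 by -0.04 and Relb by 0.25 on the log2 scale. Nfkbia, the inhibitor that NF-kB itself induces, differed by -0.03 (SE 0.18, limma, adjusted p = 0.986).

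Foxp3, the lineage factor of Tregs, was at 53.5 and 64.6 RPKM in c-Rel-deficient aTregs, against 72.6, 102 and 90.7 RPKM in WT aTregs. Both c-Rel-deficient libraries lay below all 3 WT libraries, yet the log2 difference of -0.57 (SE 0.34) did not pass (limma, adjusted p = 0.843). In stimulated c-Rel-deficient Tregs Foxp3 was also lower, by -1.11 in the authors' deposited table (adjusted p = 5.44e-05). The gate was read through its high marker. Cd44, an adhesion receptor for hyaluronan, was at 61.2 and 32.9 RPKM in c-Rel-deficient aTregs, against 49.4, 45.2 and 26.4 RPKM in WT aTregs, with overlap.

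**Figure D1:**
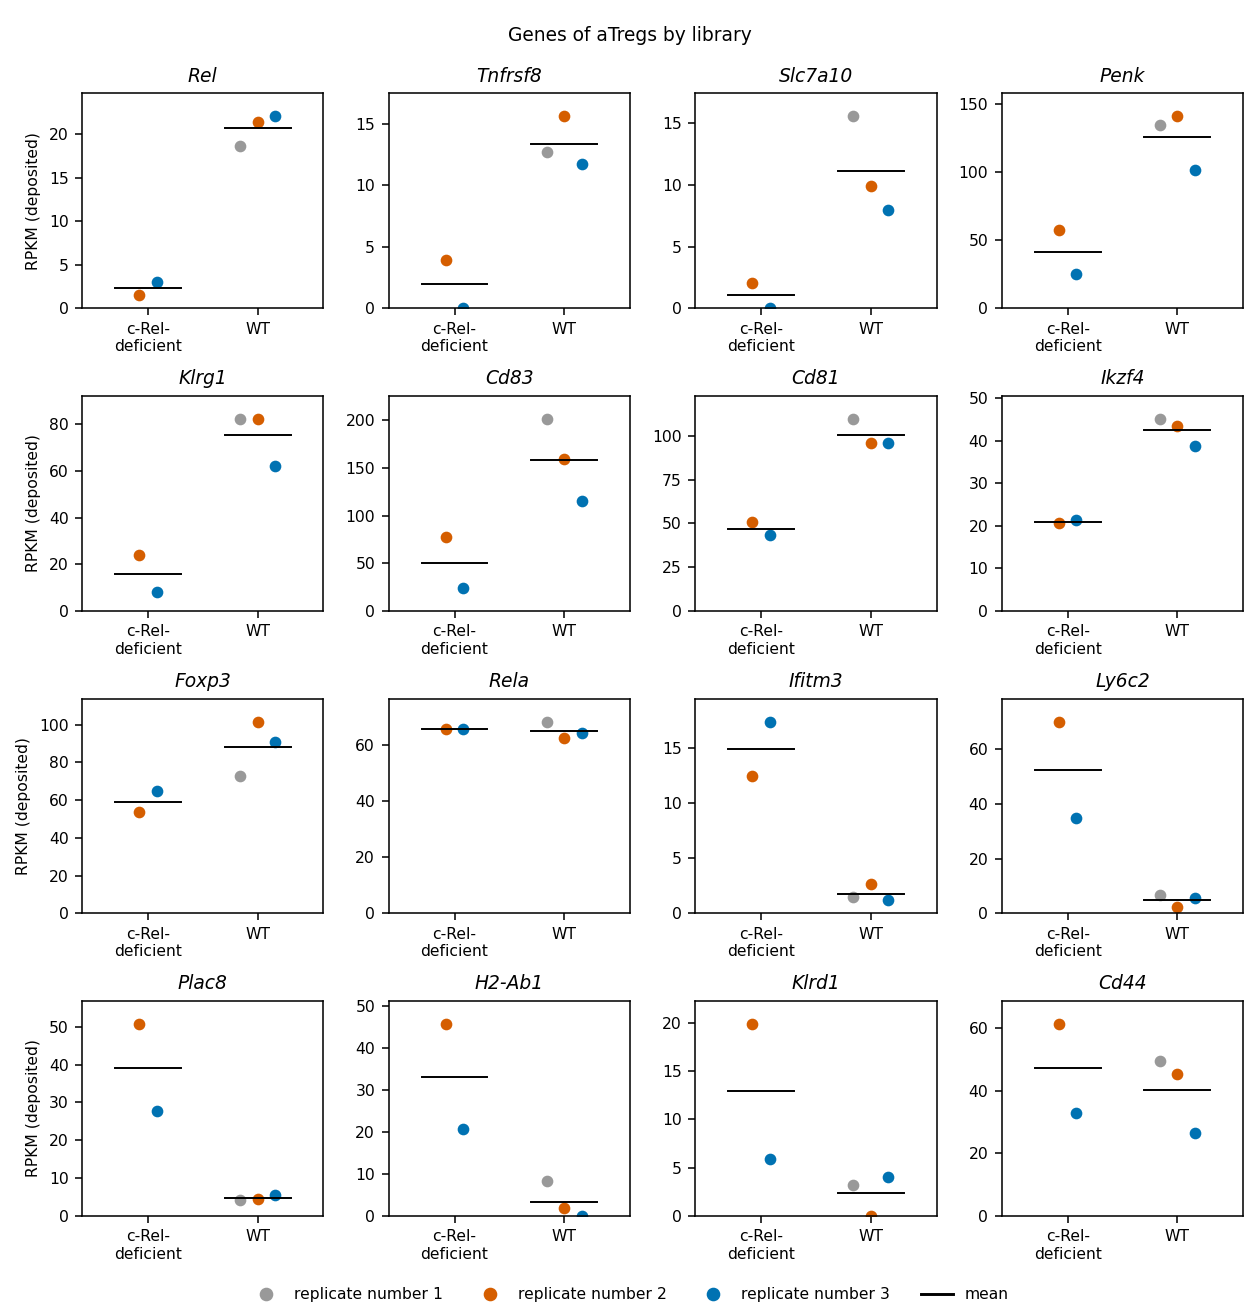
Deposited RPKM of 16 genes in the 2 c-Rel-deficient (left) and 3 WT (right) aTreg libraries; points are libraries coloured by replicate number, lines are means, and values below 0 are drawn at 0. Rel, Tnfrsf8, Slc7a10, Penk, Klrg1, Cd83, Cd81 and Ikzf4 lie lower in both c-Rel-deficient libraries, while Rela and Cd44 overlap.

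Across all genes the 2 tests available gave different counts. By limma, 0 of 10656 genes (0%) passed an adjusted p of 0.05, and 717 (6.73%) had an unadjusted p under 0.05. With replicate number as a block limma called 44 of 10656 (36 higher, 8 lower), and without a filter 40 of 14818 (13 higher, 27 lower). Calls by limma counted per list below are those of the main fit, with the filter and without a block. The authors' deposited table gave 77 of 14839 genes (0.519%), 59 higher (0.398%) and 18 lower (0.121%), once its p-values were adjusted by Benjamini-Hochberg. Without c-Rel-deficient aTreg 2 limma called 13 genes, among them Tnfrsf8, Klrg1, Alox8 and Sdc4, and without WT aTreg 3 it called 2. The 2 groups of libraries did not overlap in 1255 tested genes that were higher (11.8%) and 1468 that were lower (13.8%).

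**Figure D2:**
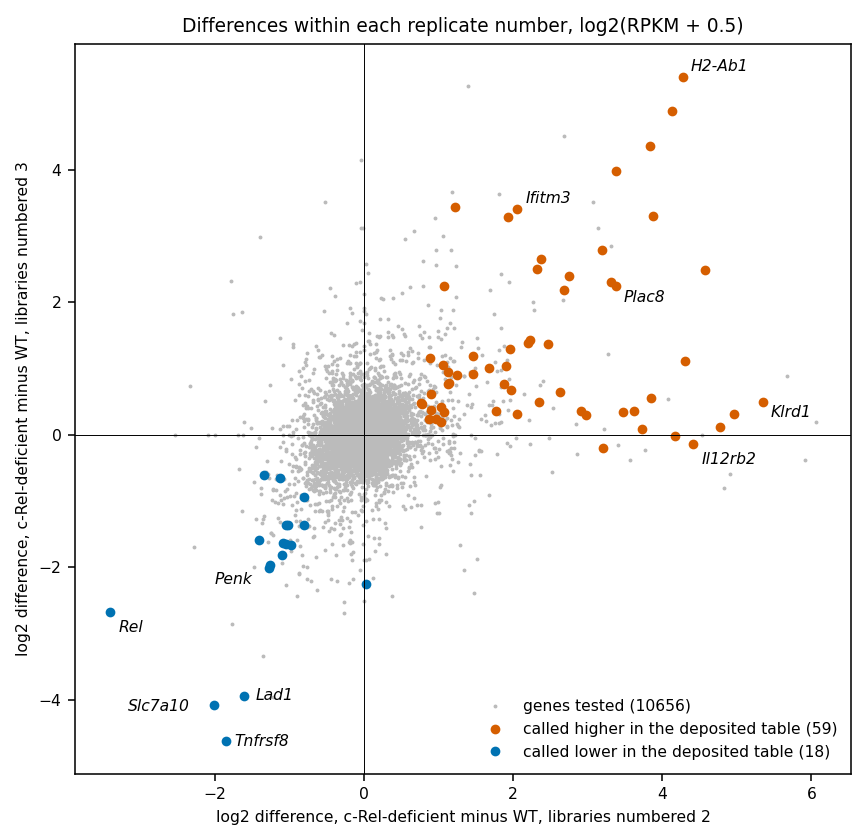
Log2 difference of c-Rel-deficient minus WT aTregs on log2(RPKM + 0.5) within number 2 (x axis) and within number 3 (y axis), 1 point per gene. The 18 genes called lower in the deposited table lie below 0 within number 3, and all but 1 within number 2, while many of the 59 called higher stretch along the axis of number 2.

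Of the 18 genes called lower, 7 averaged over 5 RPKM in WT aTregs, namely Penk, Rel, Neu3, Tnfrsf8, Slc7a10, Lad1 and Alox8. All but Prune2 did not overlap between the groups, which makes 17, and the same 17 were lower within both numbers. This was the contrast that chose them, and the background of non-overlap was 13.8%. Their median difference was -1.11 within number 2 and -1.66 within number 3.

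Tnfrsf8, which encodes CD30, a TNF family receptor of activated lymphocytes, stood at 3.95 and -0.165 RPKM in c-Rel-deficient aTregs, against 12.7, 15.6 and 11.8 RPKM in WT aTregs. Its c-Rel-deficient values were all below the WT values, the lower of them at the floor of the adjusted scale. The authors' deposited table gave a log2 fold change of -2.03 (adjusted p = 5.75e-08), and limma -3.21 (SE 0.70, adjusted p = 0.231). Slc7a10, which encodes the neutral amino acid transporter Asc-1, was at 2.07 and -0.665 RPKM in c-Rel-deficient aTregs, against 15.5, 9.92 and 7.99 RPKM in WT aTregs. It separated as widely, with -3.25 in the authors' deposited table (adjusted p = 4.1e-05). Penk, the precursor of the enkephalin opioid peptides, was at 57.5 and 24.8 RPKM in c-Rel-deficient aTregs, against 134, 141 and 102 RPKM in WT aTregs. Of the genes called lower it was the most abundant in WT cells, and its log2 fold change in the authors' deposited table was -1.40 (adjusted p = 0.00379). Neu3, a membrane sialidase, was at 12.6 and 8.48 RPKM in c-Rel-deficient aTregs, against 20.1, 22.4 and 16.6 RPKM in WT aTregs. It was a modest fall in the authors' deposited table, -0.69 (adjusted p = 0.0252).

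Lad1 encodes ladinin, an anchoring protein of epithelia, and was at 1.15 and 0.414 RPKM in c-Rel-deficient aTregs, against 4.39, 4.55 and 13.6 RPKM in WT aTregs. It was lower in c-Rel-deficient rTregs too, by -2.80 on the log2 scale. Alox8, a lipoxygenase, was at 2.35 and 1.15 RPKM in c-Rel-deficient aTregs, against 6.04, 7.08 and 4.47 RPKM in WT aTregs. Il1rn, the natural antagonist of the interleukin 1 receptor, was at 0.366 and -0.177 RPKM in c-Rel-deficient aTregs, against 1.46, 1.21 and 1.09 RPKM in WT aTregs. These 3 low genes separated cleanly, and the authors' deposited table called each (adjusted p = 0.0199, 0.0199 and 0.00312 for Lad1, Alox8 and Il1rn).

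Stimulated Tregs gave a measure of the same loss in other libraries. There Rel was at 2.44 and 24.96 RPKM in c-Rel-deficient Tregs, against 55.1 and 55.8 RPKM in WT Tregs, so that library 2 lay nearer to WT than library 1. All 18 genes called lower in aTregs had a log2 fold change below 0 in stimulated Tregs as well in the authors' deposited table, where 45.55% of 12849 genes lie below 0. Rel, the deleted gene, is among the 18 here and in the counts that follow, so that its part in them was set by the genotype. Taken alone, the stimulated c-Rel-deficient library 1 lay below both WT libraries in 17 of the 18 (all tested genes, 29.4%), and library 2, with the higher Rel level, in 16 (all tested genes, 23.7%). In that table, which calls 306 of 14310 genes (2.14%), 4 of the 18 passed. These were Rel (-3.38, adjusted p = 2.9e-45), Tnfrsf8 (-2.14, adjusted p = 4.05e-14), Slc7a10 (-2.16, adjusted p = 0.00772) and Fut10, a fucosyltransferase gene (-1.94, adjusted p = 0.00411), each in the authors' deposited table. The 59 genes called higher in aTregs behaved otherwise, with 31 of the 57 present above 0 in stimulated Tregs in the authors' deposited table, where 54.21% of genes lie above 0. Of these 57, 2 passed there in the same direction (Il21 and Eomes) and 4 in the opposite one (H2-Ab1, H2-Aa, H2-Eb1 and Csf2rb2).

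**Figure D3:**
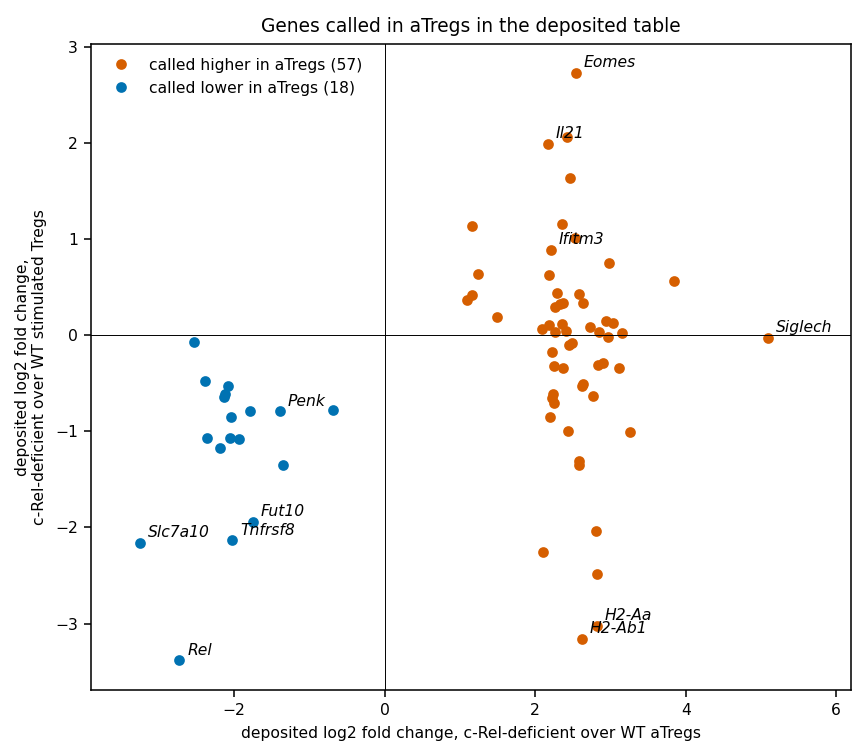
Deposited log2 fold changes of the genes called in aTregs, in aTregs (x axis) and in stimulated Tregs (y axis), c-Rel-deficient over WT. All 18 genes called lower in aTregs lie below 0 in stimulated Tregs, while the 57 called higher lie on both sides.

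A wider group was drawn after the values were seen, as genes with no overlap and a log2 difference of at least 1. It held 81 lower genes (0.76%) and 83 higher genes (0.779%). Of the lower genes 64 were tested in the stimulated set by limma, and 61 were below 0 there with a median log2 difference of -0.92. Of the higher genes 49 were tested there, and 32 were above 0 with a median of 0.32. The limma median in the stimulated set over all genes tested in aTregs was 0.06. By another measure, the authors' deposited fold change in stimulated Tregs, 41.13% of 9696 genes tested in aTregs lie below 0 and 58.87% above 0. These shares are therefore no exact background for the limma signs. A c-Rel-deficient value was below 0 in 12 of the 81 lower genes, and a WT value was below 0 in 35 of the 83 higher genes.

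Among effector genes of Tregs several surface receptors lay lower, with no call. Of 30 measured genes of the effector list, limma and the deposited table called 0, 10 had an unadjusted limma p under 0.05 (background 6.73%), 10 lay lower without overlap beside a background of 13.8%, and 2 lay higher (Lag3 and Ccr2). The list median was -0.22, against 0.01 over all genes tested, and 16 of the 30 were lower within both numbers. Without c-Rel-deficient aTreg 2 the median was -0.58, and without WT aTreg 2 it was -0.05. With a replicate block the list median turned positive, so that its direction depends on the fit. Klrg1, an inhibitory receptor of highly differentiated T cells, was the gene with the widest gap, at 23.8 and 8.10 RPKM in c-Rel-deficient aTregs, against 82.2, 82.3 and 62.0 RPKM in WT aTregs. Its log2 difference was -2.38 (SE 0.35, limma, adjusted p = 0.103). The authors' deposited table gave -1.78 (adjusted p = 0.0522), just short of the threshold. In stimulated Tregs Klrg1 stood at 3.16 and 12.4 RPKM in c-Rel-deficient cells, against 17.1 and 22.6 RPKM in WT cells, and was called there in the authors' deposited table (-1.78, adjusted p = 4.23e-06).

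Cd83, an activation glycoprotein, was at 77.2 and 23.4 RPKM in c-Rel-deficient aTregs, against 201, 159.7 and 115 RPKM in WT aTregs. Ccr8, a chemokine receptor of tissue Tregs, was at 39.95 and 15.6 RPKM in c-Rel-deficient aTregs, against 104, 71.3 and 62.7 RPKM in WT aTregs. Both separated without overlap, by -1.85 (SE 0.63, limma, adjusted p = 0.522) and -1.61 (SE 0.42, limma, adjusted p = 0.33). In both genes c-Rel-deficient aTreg 3 was the lowest library, and without it the differences were -0.999 and -0.95. Ebi3, a subunit of interleukins 27 and 35, was at 26.5 and 8.83 RPKM in c-Rel-deficient aTregs, against 47.9, 45.7 and 36.7 RPKM in WT aTregs. Pdcd1, the inhibitory receptor PD-1, was at 94.7 and 39.8 RPKM in c-Rel-deficient aTregs, against 188, 152 and 107 RPKM in WT aTregs. Neither overlapped, with differences of -1.46 and -1.23, and c-Rel-deficient aTreg 3 was again the lowest library, without which they were -0.69 and -0.61. Areg, the repair factor amphiregulin, differed by -1.21 without overlap. Batf, a transcription factor of effector Tregs, differed by -0.87 and Il1rl1, the interleukin 33 receptor, by -0.89. None of these passed in limma, with adjusted p between 0.299 and 0.642. Tigit, an inhibitory receptor, was lower in both libraries with a difference of -0.94 (SE 0.59, limma, adjusted p = 0.844). The most abundant gene of the list, S100a4, overlapped between the groups, as did Ctla4, which restrains CD28 signalling (0.15, SE 0.32, limma, adjusted p = 0.959).

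Some genes of Treg identity lay lower, with no call. Of 18 measured, 0 were called by limma or the deposited table, 5 had an unadjusted limma p under 0.05 (background 6.73%), 7 lay lower without overlap (background 13.8%) and 0 higher, and the list median was -0.10 (-0.01 without WT aTreg 2). Ikzf4, which encodes Eos, a partner of Foxp3, stood at 20.6 and 21.3 RPKM in c-Rel-deficient aTregs, against 45.1, 43.5 and 38.7 RPKM in WT aTregs. Its log2 difference was -0.998 (SE 0.21, limma, adjusted p = 0.222), nearly the same within number 2 (-1.06) and number 3 (-0.85). Ikzf2, which encodes Helios, differed by -0.97 and Nrp1, a surface receptor of thymic Tregs, by -0.96. All 3 were called lower in stimulated Tregs in the authors' deposited table, with adjusted p between 0.000827 and 0.00563. Il2ra, the interleukin 2 receptor alpha chain (0.26, SE 0.38, limma, adjusted p = 0.949), and Il2rb, the most abundant gene of the list (0.18), overlapped between the groups. Cd81, a tetraspanin outside the lists, was at 50.8 and 43.3 RPKM in c-Rel-deficient aTregs, against 109.9, 95.9 and 96.0 RPKM in WT aTregs. It was lower within both numbers, by -0.91 and -1.14, and pooled by -1.09 (SE 0.18, limma, adjusted p = 0.171).

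Receptors of the TNF family, through several of which NF-kB is activated, mostly had differences below 0. Of 13 tested, 1 was called lower in the deposited table (Tnfrsf8, given above; background 0.121%), 6 lay lower without overlap (background 13.8%) and 1 lay higher (Tnfrsf1a). Of the 13, 11 were lower within both numbers, as were 2935 of all 10656 genes. The median was -0.25 pooled, -0.35 within number 2 and -0.39 within number 3. Tnfrsf4 (OX40), a costimulatory receptor, was at 295 and 258 RPKM in c-Rel-deficient aTregs, against 578, 429 and 381 RPKM in WT aTregs. Tnfrsf18 (GITR) was at 252 and 235 RPKM in c-Rel-deficient aTregs, against 338, 348 and 334 RPKM in WT aTregs. Neither overlapped, and the log2 differences were -0.72 and -0.48 (limma, adjusted p = 0.435 and 0.569). Tnfrsf9 (4-1BB) overlapped, with c-Rel-deficient aTreg 2 at 123.4 RPKM just above WT aTreg 3 at 119.7 RPKM. Among NF-kB inhibitors and feedback targets 0 of 23 were called by limma or the deposited table, 2 had an unadjusted limma p under 0.05 (background 6.73%), 2 lay lower (Bcl2l1 and Birc2; background 13.8%) and 1 higher (Cd40lg; background 11.8%) without overlap, and the median was -0.01. These counts are near or below the background. Bcl2l1, which encodes the survival factor Bcl-xL, was the lowest of them at -0.86 (SE 0.25, limma, adjusted p = 0.435), and Cd40lg, which encodes CD40 ligand, the highest at 1.096 (SE 0.42, limma, adjusted p = 0.602). In stimulated Tregs the authors' deposited table called both, Bcl2l1 at -0.97 (adjusted p = 0.00296) and Cd40lg at 1.19 (adjusted p = 0.00648).

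Receptors of interleukin 1 and other cytokines, with their antagonists and signalling parts, were read as a list of 29 genes, of which the deposited table called 1 higher (Il12rb2; background 0.398%) and 1 lower (Il1rn; background 0.121%). Of the 28 tested, 7 lay lower without overlap (background 13.8%) and 1 higher (background 11.8%). Il1r2, the decoy receptor of interleukin 1, was at 29.6 and 27.8 RPKM in c-Rel-deficient aTregs, against 87.8, 72.6 and 43.9 RPKM in WT aTregs. It separated without overlap (-1.17, SE 0.59, limma, adjusted p = 0.793) and was called in stimulated Tregs in the authors' deposited table (-1.80, adjusted p = 2.15e-11). Sdc4, a heparan sulfate proteoglycan, was at 5.53 and 2.95 RPKM in c-Rel-deficient aTregs, against 12.5, 10.5 and 10.6 RPKM in WT aTregs. Its difference of -1.36 in aTregs stood beside -1.28 in rTregs. The chemokine receptor list had no call, and its most abundant gene Ccr7, which guides cells into lymph nodes, differed by 0.98 (SE 0.44, limma, adjusted p = 0.741) with overlap.

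Genes of activation were also defined by a difference between libraries outside the comparison. The limma fit held all sorted groups together, so the spread within the compared aTreg libraries still entered the p-values of these calls. In p65-deficient cells, limma called 235 genes (2.21%) at least 1 log2 unit higher in aTregs than in rTregs and 11 (0.103%) at least 1 lower. Of the 235, 211 were below 0 on loss of c-Rel, where 46.95% of all tested genes were below 0. Their median was -0.51, against 0.01 for all genes, with -0.43 within number 2 and -0.31 within number 3. Beside 2935 of all 10656 genes, 158 of the 235 were lower within both numbers. In this set 91 lay lower without overlap and 3 higher (Car5b, Popdc2 and Lat2), beside backgrounds of 13.8% and 11.8%. These backgrounds are no even measure here, because genes with little spread within the compared groups pass more easily and also overlap less. That bears on overlap in either direction. The pooled sign is open to another imbalance, since number 3 is a larger share of the c-Rel-deficient than of the WT libraries. At the median both libraries numbered 3 lay lower in these genes, which lowers their pooled differences. The deposited table called 4 of the 235 lower (Neu3, Alox8, Penk and Slc24a3, background 0.121%). Without c-Rel-deficient aTreg 2 the median of the 235 was -0.73, and without c-Rel-deficient aTreg 3 it was -0.31. In stimulated Tregs the median of the same set was -0.54. The 11 genes lower in aTregs were all above 0, with a median of 0.56, and 10 were higher within both numbers. In a bulk library a smaller share of cells with an activation gene and less of its RNA in each cell cannot be told apart.

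Most resting and lymph node homing genes had differences above 0, with no call. Of 20 genes 17 were above 0, beside 5653 of all 10656 tested genes. The list median was 0.37, against 0.01 over all genes, with 0.34 within number 2 and 0.16 within number 3. Free of overlap were 0 of the 20, beside backgrounds of 11.8% higher and 13.8% lower. Without c-Rel-deficient aTreg 3 the median was -0.04, and without c-Rel-deficient aTreg 2 it was 1.07. The level of this list moved with the replicate number, its sum being 1401 and 2988 RPKM in c-Rel-deficient aTregs 2 and 3, against 1042.5, 1102 and 2754 RPKM in WT aTregs 1, 2 and 3. The ratio of c-Rel-deficient to WT was 1.27 within number 2 and 1.09 within number 3.

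**Figure D4:**
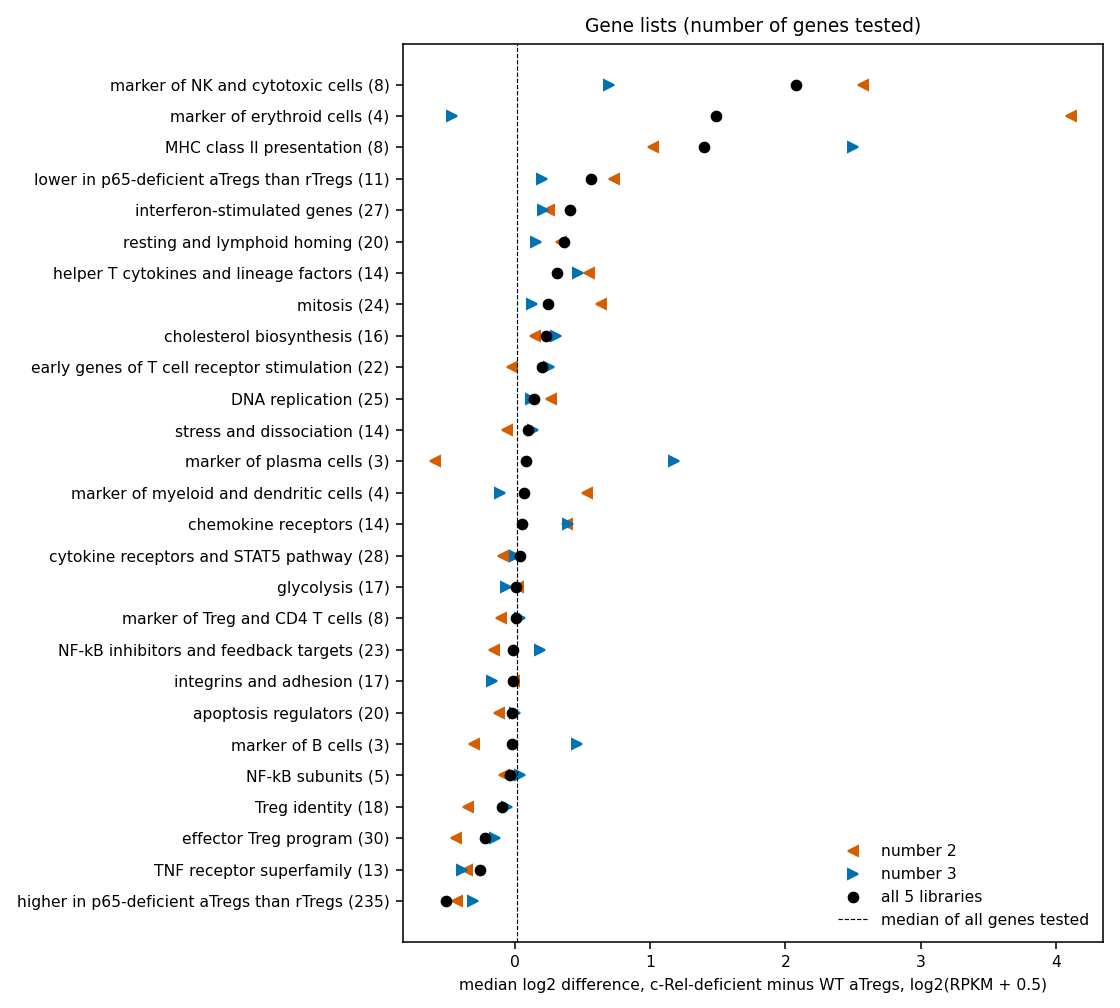
Median log2 difference, c-Rel-deficient minus WT aTregs on log2(RPKM + 0.5), of each gene list for all 5 libraries (circles), within number 2 and within number 3 (triangles); the dashed line is the median of all genes tested. Activation genes and TNF family receptors lie left of it in all 3 readings, while the lists of NK, erythroid and plasma cell markers differ widely between the numbers.

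The 59 genes called higher were mostly weak in WT aTregs. Their median level was 2.95 RPKM in c-Rel-deficient aTregs and 0.255 RPKM in WT aTregs, 41 had a WT value below 0, and 13 never reached 1 RPKM in any of the 5 libraries. In 48 the difference was larger within number 2, where the median was 2.22, than within number 3, where it was 0.90. Of the 59, 8 belong to the lists of other cell types or of class II presentation, and of the 18 called lower 0 do. These lists hold 45 measured markers of other cells and 10 class II presentation genes. Over all genes 0.398% were called higher and 0.121% lower, so that 0 falls on lists this short is near the background.

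Class II presentation genes were among these rises, with 3 called of 10 measured and 6 of 8 tested free of overlap (background 11.8%). H2-Ab1, a class II chain that presents peptides on antigen-presenting cells, stood at 45.6 and 20.6 RPKM in c-Rel-deficient aTregs, against 8.24, 1.88 and -3.003 RPKM in WT aTregs. H2-Eb1 was at 31.9 and 14.3 RPKM in c-Rel-deficient aTregs, against 5.05, 1.36 and -3.02 RPKM in WT aTregs, and H2-Aa was at 21.1 and 9.74 RPKM in c-Rel-deficient aTregs, against 3.45, 1.01 and -1.90 RPKM in WT aTregs. The 3 genes moved together across libraries, and the authors' deposited table called each (log2 fold changes of 2.62, 2.83 and 2.82, adjusted p = 0.00183, 0.000451 and 0.000217). In stimulated Tregs the same 3 were called lower in c-Rel-deficient cells in the authors' deposited table, by -3.16, -2.49 and -3.03. The sum of 10 class II presentation genes was 436 and 325 RPKM in c-Rel-deficient aTregs, against 225, 182 and 81.9 RPKM in WT aTregs. Cd74, the class II invariant chain, made up much of it, with 262 and 203 RPKM in c-Rel-deficient aTregs, against 160.1, 116 and 15.6 RPKM in WT aTregs.

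Some genes of natural killer (NK) and myeloid cells were also called higher. Tyrobp, which encodes the adaptor DAP12, was at 11.7 and 7.41 RPKM in c-Rel-deficient aTregs, against 2.01, 0.666 and -1.86 RPKM in WT aTregs. Klrd1, which encodes the NK receptor chain CD94, was at 19.9 and 5.91 RPKM in c-Rel-deficient aTregs, against 3.20, -1.85 and 4.04 RPKM in WT aTregs. Klrk1, which encodes NKG2D, was at 15.0 RPKM in c-Rel-deficient aTreg 2 and at 1.73 RPKM in c-Rel-deficient aTreg 3, so that 1 library carried its difference. Fcer1g, an adaptor of Fc receptors, and Il12rb2, a chain of the interleukin 12 receptor, were likewise highest in c-Rel-deficient aTreg 2. The deposited table called Tyrobp, Klrk1 and Fcer1g, 3 of the 10 NK markers measured (background 0.398%). Of 8 tested, 5 lay higher without overlap (background 11.8%), while Gzma, a granzyme gene, lay lower at 0.440 and 0.363 RPKM in c-Rel-deficient aTregs, against 0.694, 0.987 and 0.984 RPKM in WT aTregs. The sum of the list was 212 and 93.8 RPKM in c-Rel-deficient aTregs, against 122, 63.0 and 57.7 RPKM in WT aTregs. Most of it was Nkg7, a granule protein gene, which overlapped at 140.7 and 67.5 RPKM in c-Rel-deficient aTregs, against 110.6, 58.7 and 47.1 RPKM in WT aTregs. Siglech, a lectin of plasmacytoid dendritic cells, was at 4.34 and 2.97 RPKM in c-Rel-deficient aTregs, against 0.719, 0.0279 and -0.938 RPKM in WT aTregs, and Itgax, which encodes CD11c, was at 2.26 and 0.786 RPKM in c-Rel-deficient aTregs, against at most 0.310 RPKM in WT aTregs.

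Of 45 measured markers of other cells, class II presentation left out, 22 stayed under 1 RPKM in all 5 libraries. Without overlap 13 lay higher and 2 lower, beside shares of 11.8% and 13.8% among tested genes. Markers that did not pass the filter are not part of those shares. Ms4a1 of B cells was at most 0.225 RPKM, Cd8a of CD8 T cells at most 0.201 RPKM, Ncr1 of NK cells at most 0.177 RPKM, Csf1r of macrophages at most 0.341 RPKM and Clec9a of dendritic cells at most 0.251 RPKM. Other defining markers were present. Klrb1c, which encodes NK1.1 of NK cells, was at 25.05 and 3.60 RPKM in c-Rel-deficient aTregs, against 2.88, -0.0212 and 1.72 RPKM in WT aTregs. Spi1, which encodes the myeloid factor PU.1, was at 1.98 and 0.732 RPKM in c-Rel-deficient aTregs, against 0.356, 0.183 and -0.0526 RPKM in WT aTregs. The summed B cell list was 24.7 and 24.98 RPKM in c-Rel-deficient aTregs, against 25.9, 29.7 and 17.4 RPKM in WT aTregs, most of it Cd79b. Summed markers of myeloid and dendritic cells were 105 and 82.6 RPKM in c-Rel-deficient aTregs, against 92.1, 84.6 and 105.3 RPKM in WT aTregs. Most of that sum was Cst3, at 90.0 and 74.7 RPKM in c-Rel-deficient aTregs, against 86.9, 80.9 and 102 RPKM in WT aTregs. Higher without overlap lay 5 of the 13 myeloid markers, Siglech, Itgax, Spi1, Adgre1 and Clec9a (background over tested genes 11.8%). Summed plasma cell and CD8 T cell markers overlapped as well. Erythroid markers summed to 48.99 and 21.5 RPKM in c-Rel-deficient aTregs, against 18.7, 0.398 and 30.7 RPKM in WT aTregs, and differed most within number 2. The summed markers of Tregs and CD4 T cells, at 2269 and 2321 RPKM in c-Rel-deficient aTregs, against 2292, 2416 and 2137 RPKM in WT aTregs, did not separate the groups. The part of other cells in the rises was not tested.

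**Figure D5:**
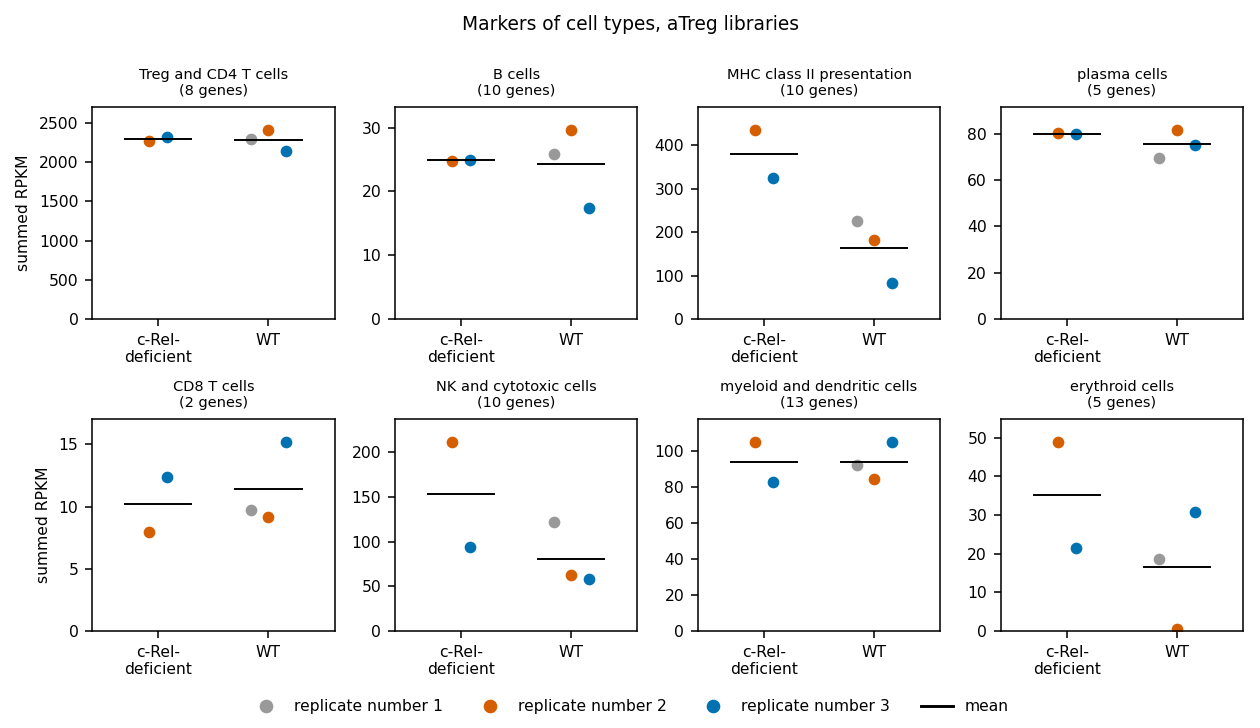
Summed RPKM of markers of 8 cell types or functions in the 2 c-Rel-deficient (left) and 3 WT (right) aTreg libraries; points are libraries coloured by replicate number and lines are means. Class II presentation genes lie higher in both c-Rel-deficient libraries, NK markers stand out in the c-Rel-deficient library numbered 2, and B cell markers overlap.

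Other rises lay outside these lists and were high in both c-Rel-deficient libraries. Ly6c2, a Ly6C surface protein, was at 70.0 and 34.6 RPKM in c-Rel-deficient aTregs, against 6.56, 2.48 and 5.77 RPKM in WT aTregs. Plac8 was at 50.7 and 27.6 RPKM in c-Rel-deficient aTregs, against 4.23, 4.41 and 5.44 RPKM in WT aTregs. Ifitm3, a restriction factor of virus entry, was at 12.5 and 17.4 RPKM in c-Rel-deficient aTregs, against 1.45, 2.62 and 1.18 RPKM in WT aTregs. In all 3 genes both c-Rel-deficient values lay far above every WT value. The authors' deposited table gave log2 fold changes of 2.97 for Ly6c2, 2.36 for Plac8 and 2.20 for Ifitm3 (adjusted p = 1.89e-05, 0.00625 and 0.0131). In rTregs Ly6c2 and Plac8 overlapped between the genotypes, while Ifitm3 was at 19.6 and 8.94 RPKM in c-Rel-deficient rTregs, against 8.55 and 5.06 RPKM in WT rTregs. Plac8 was at 35.5 and 6.24 RPKM in c-Rel-deficient rTregs, against 6.36 and 3.28 RPKM in WT rTregs. In p65-deficient aTregs, whose comparison shares the WT libraries, they stood at 11.1 and 15.0 RPKM (Ly6c2), 9.54 and 8.78 RPKM (Plac8) and 3.17 and 7.05 RPKM (Ifitm3). Ly6a, the Sca-1 antigen, was at 433 and 474 RPKM in c-Rel-deficient aTregs, against 203, 219 and 228 RPKM in WT aTregs, and was not called in either test. Stfa3, a cysteine protease inhibitor, and Arl4d, a small GTPase, were called in the authors' deposited table (adjusted p = 0.0456 and 0.000999), both with their highest value in c-Rel-deficient aTreg 2.

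Most interferon-stimulated genes had differences above 0, with few calls. Of 27 measured, the deposited table called 2 higher (background 0.398%), and 4 had an unadjusted limma p under 0.05 (background 6.73%). Higher without overlap lay 6 and lower 0, beside backgrounds of 11.8% and 13.8%. Above 0 were 24 with a median of 0.41 over the list, beside 5653 of all 10656 tested genes. The median was 0.26 within number 2 and 0.21 within number 3, and 18 were higher within both numbers, as were 2994 of all 10656 genes. Without WT aTreg 1 the pooled median was 0.23, and without c-Rel-deficient aTreg 3 it was 0.26. Oasl2, an antiviral synthetase-like protein, was at 9.48 and 14.3 RPKM in c-Rel-deficient aTregs, against 3.30, 4.09 and 8.21 RPKM in WT aTregs. Ifit3, which binds viral RNA complexes, was at 17.9 and 26.1 RPKM in c-Rel-deficient aTregs, against 6.73, 7.86 and 14.96 RPKM in WT aTregs. Both separated narrowly from WT aTreg 3, and both had a log2 fold change of 1.16 in the authors' deposited table (adjusted p = 0.028 and 0.015). In p65-deficient aTregs, set against the same WT libraries, Ifit3 was at 19.9 and 23.6 RPKM and Oasl2 at 9.02 and 8.68 RPKM.

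Of 18 cytokines and lineage factors of helper T cells measured, 14 were tested and 2 were called higher in the deposited table (background 0.398%). Il21, a cytokine of follicular helper T cells, was at 4.44 and 2.33 RPKM in c-Rel-deficient aTregs, against 1.55, 0.493 and -0.495 RPKM in WT aTregs. Eomes, a transcription factor of cytotoxic lymphocytes, was at 1.84 and 1.95 RPKM in c-Rel-deficient aTregs, against 0.582, -0.0643 and 0.411 RPKM in WT aTregs. Both were low genes without overlap, called in aTregs in the authors' deposited table (2.17 and 2.54, adjusted p = 0.00275 and 0.000572). In stimulated Tregs the authors' deposited table called them higher as well (1.99 and 2.72, adjusted p = 0.0345 and 6.81e-09), and stimulated Eomes was at 19.0 and 2.09 RPKM in c-Rel-deficient cells, against 0.824 and 2.01 RPKM in WT cells. Il2, which c-Rel is known to induce in conventional T cells, was at 2.75 and 1.34 RPKM in c-Rel-deficient aTregs, against 0.847, 0.169 and -0.359 RPKM in WT aTregs. It did not pass in the authors' deposited table (2.09, adjusted p = 0.0628) or in the main fit (1.67, SE 0.49, limma, adjusted p = 0.435). With a replicate block it was called (2.04, SE 0.22, limma, adjusted p = 0.00706).

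The difference between subsets was tested as the loss of c-Rel in aTregs minus its loss in rTregs. By limma 0 of 10656 genes (0%) passed, and 497 had an unadjusted p under 0.05. In rTregs the authors' deposited table called 4 genes (0.027%), against 77 in aTregs, but that gap in counts is no test. Rel itself differed by -2.22 in rTregs and -2.97 in aTregs (difference -0.75, SE 0.62, limma, adjusted p = 0.898). Klrg1 differed by 0.02 in rTregs and -2.38 in aTregs (difference -2.40, SE 0.52, limma, adjusted p = 0.898), and Tnfrsf8 by -0.13 and -3.21 (difference -3.08, SE 1.04, limma, adjusted p = 0.898). In rTregs Klrg1 was at 6.13 and 4.44 RPKM in c-Rel-deficient cells, against 6.07 and 4.38 RPKM in WT cells, and Tnfrsf8 was at 1.76 and 0.708 RPKM in c-Rel-deficient cells, against 1.81 and 0.913 RPKM in WT cells.

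The subunits were compared directly as c-Rel-deficient minus p65-deficient aTregs. By limma 0 of 10656 genes (0%) passed, and 634 had an unadjusted p under 0.05. Rela, the gene targeted in p65-deficient cells, was at 46.8 and 56.1 RPKM in p65-deficient aTregs, against 68.3, 62.3 and 64.2 RPKM in WT aTregs. Its log2 difference from WT was only -0.34 (SE 0.11, limma, adjusted p = 0.998), so that its RNA level shows the loss of p65 weakly. Klrg1 was at 23.8 and 8.10 RPKM in c-Rel-deficient aTregs, against 71.98 and 81.4 RPKM in p65-deficient aTregs (difference -2.41, limma, adjusted p = 0.219). Penk was at 57.5 and 24.8 RPKM in c-Rel-deficient aTregs, against 167 and 132 RPKM in p65-deficient aTregs (difference -1.96, limma, adjusted p = 0.312). Both genes separated these libraries fully. Tnfrsf8 was at 3.95 and -0.165 RPKM in c-Rel-deficient aTregs, against 7.92 and 8.86 RPKM in p65-deficient aTregs, and Il1rn was at 0.366 and -0.177 RPKM in c-Rel-deficient aTregs, against 0.291 and 0.248 RPKM in p65-deficient aTregs. Against WT aTregs the authors' deposited table calls 29 genes (0.195%) on loss of p65. Of the genes called on loss of c-Rel, 1 of the 59 higher and 2 of the 18 lower were among these 29. Il1rn had -2.41 on loss of p65 and -2.39 on loss of c-Rel. Slc2a6, a sugar transporter gene, had -1.86 and -1.80, and Ifit3 had 1.58 and 1.16. Relb, called on loss of p65 as well (-1.12, adjusted p = 0.0149), had 0.21 on loss of c-Rel. All are from the authors' deposited table, and both fold changes are taken against the same WT libraries.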

How the data were processed

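The sorted and the stimulated set each came as a table of RPKM values, together with fold changes (log2) and p-values of comparisons that the authors deposited beside them, per the file headers. STAR, mm10 and DESeq2 (version 1.10.1) appear in the submitters' processing notes. Of the deposited sorted RPKM values 2.53% are negative. Libraries with equal replicate numbers share 15883 tied values, and those with unequal numbers share 0.

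Negative values were replaced by 0 and the log2 of RPKM plus 0.5 was used. The filter kept a gene that reached 1 RPKM in 2 or more of the 13 sorted libraries. Group means were fitted with limma 3.58.1 in R 4.3.3 (eBayes with trend, two-sided tests), p-values were adjusted by the Benjamini-Hochberg method, and an adjusted p under 0.05 was a call. The stimulated table was fitted alone. P-values that the authors deposited were adjusted here over 14839 sorted and 14310 stimulated genes. The fit was tested on simulated data. No read totals are in the tables, so that no counting interval is given.

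The genes named by rule are Rel, Rela, Foxp3 and Cd44, with 1 further gene not reported here, then the called genes with no overlap and 5 RPKM or more in the higher group (up to 10 in each direction, from the deposited calls because limma made 0), and from each of 26 lists up to 3 called members or else the most abundant one. All other named genes were chosen after their values were seen. Members, lists and tests were chosen with earlier results of these data known. Gene positions are from GENCODE vM21 (GRCm38) and promoters from RefSeq. Python 3.11.15 with pandas 2.3.3, numpy 2.4.6, scipy 1.17.1 and matplotlib 3.10.9 was used for counts and plots. Alternatives were no or a stricter filter, other pseudocounts, median-of-ratios scaling, robust variances, only the compared groups in the fit, genes with negative values left out, a replicate block, and leaving out libraries.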

Additional observations from a re-analysis of the deposited data

Results flagged for a closer look

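Ly6d, a surface protein of lymphoid progenitors and B cells, lay on opposite sides of WT in the 2 subsets. It was at 5.05 and 4.39 RPKM in c-Rel-deficient aTregs, against 0.221, 0.951 and -0.384 RPKM in WT aTregs, and at 1.32 and 0.840 RPKM in c-Rel-deficient rTregs, against 5.91 and 2.46 RPKM in WT rTregs. The loss of c-Rel in aTregs minus its loss in rTregs was 4.17 on the log2 scale (SE 0.73), and limma's test of that difference did not pass (adjusted p = 0.873).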

How the results depend on the processing

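The count of 0 genes called by limma for c-Rel-deficient against WT aTregs became 40 without a filter (13 higher, 27 lower), among them Rel, Klrg1, Alox8, Il1rn, Fut10 and Ifitm3. It ranged from 0 to 13 when 1 library was left out. With a replicate block it was 44 (36 higher, 8 lower), of which 17 were also called in the deposited table. The numbers form only 2 pairs, and the labels do not call the numbers batches. The deviations of same-numbered libraries from their group means correlated at 0.142 for number 2 and 0.324 for number 3. With 2 c-Rel-deficient libraries these deviations mirror each other in that group, so that the 2 correlations are not separate checks of the pairing. The aTreg minus rTreg test gave 3 calls with the block and 0 to 2 with 1 library left out. Against p65-deficient aTregs there were 5 calls without a filter, 46 with the block, and 0 to 2 with 1 library left out. Median-of-ratios scaling moved the median of all genes by -0.0038. The cause of these shifts was not tested. With 2 libraries a group, a lone library left in a group was assumed to vary like the others.

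Leaving out both libraries numbered 3, chosen after seeing the data, gave medians of -0.30 for Treg identity, -0.031 for early T cell receptor genes, -0.068 for cytokine receptors, 0.048 for glycolysis (0.049 with the block), -0.095 for Treg and CD4 T cell markers, -0.52 for plasma cell markers and 0.016 for stress genes. The NK marker median was 3.03 with a pseudocount of 0.1 and 0.53 with genes that hold negative values left out, and that of the 11 genes lower on activation was 0.94 with a pseudocount of 0.1.

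With the replicate block the effector list had a median of 0.075. With 1 library left out, the list medians ranged from -0.18 to 0.66 for mitosis, from -0.017 to 0.27 for replication, from 0.23 to 0.54 for interferon-stimulated genes, from -0.22 to -0.0080 for Treg identity, from -0.035 to 1.07 for resting genes, from -0.17 to 0.054 for NF-kB subunits, from -0.35 to -0.20 for TNF receptors, from 0.061 to 0.32 for early T cell receptor genes, from -0.13 to 0.46 for chemokine receptors, from -0.24 to -0.035 for adhesion, from -0.087 to 0.060 for cytokine receptors, from -0.030 to 0.069 for glycolysis and from 0.11 to 0.45 for cholesterol. Marker medians ranged from -0.025 to 0.050 for Tregs, from 1.40 to 2.88 for NK cells and from -0.25 to 0.14 for myeloid cells, and stress genes from -0.028 to 0.21.

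Among the named genes, signs turned only in some that the deposited table did not call. Limma called 0 genes in the main fit, so that its calls could not be compared in this way. Leaving out both libraries numbered 3 gave -0.19 for S100a4, -0.047 for Junb, -0.073 for Mcl1, -0.17 for Cd79b, -0.17 for Il2ra and -0.23 for Ctla4. The block gave 0.020 for Nfkbia, -0.016 for Hspa8 and 0.075 for Nfkb2. With 1 library left out the ranges were -0.012 to 0.054 for Rela, -0.24 to 0.65 for Cd44, -0.38 to 0.28 for S100a4, -0.16 to 0.053 for Nfkbia, -0.20 to 0.19 for Cd2, -0.023 to 0.41 for Srebf2, -0.10 to 0.32 for Mcl1, -0.11 to 0.21 for Cd79b, -0.47 to 0.16 for Cd8b1, -0.038 to 0.10 for Hspa8, -0.062 to 0.58 for Il2ra, -0.18 to 0.34 for Ctla4, -0.011 to 0.41 for Relb and -0.23 to 0.11 for Nfkb2.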

Other observations

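Most genes of the cell cycle had small differences above 0 in c-Rel-deficient aTregs, with no call. Of 25 replication genes 22 were above 0, beside 5653 of all 10656 tested genes. The replication median was 0.14 on the log2 scale, and 7 lay higher without overlap, beside a background of 11.8%. Pcna, the sliding clamp of DNA polymerase, was at 112 and 100.6 RPKM in c-Rel-deficient aTregs, against 92.4, 87.2 and 87.6 RPKM in WT aTregs. Of 24 mitosis genes 22 were above 0, with a median of 0.24, 0.64 within number 2 and 0.13 within number 3, and 0 were free of overlap. Top2a, a topoisomerase of dividing cells, was at 34.9 and 19.3 RPKM in c-Rel-deficient aTregs, against 21.7, 19.1 and 14.1 RPKM in WT aTregs. Without c-Rel-deficient aTreg 2 the medians were -0.02 for replication and -0.18 for mitosis. In stimulated Tregs the medians were -0.38 for replication and -1.33 for mitosis.

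Of 16 cholesterol biosynthesis genes 14 were above 0 (all tested genes, 5653 of 10656). The list median was 0.23, and 4 genes lay higher without overlap (background 11.8%). Its most abundant member, the regulator Srebf2, overlapped between the groups (0.20). The lists of glycolysis, adhesion, apoptosis, stress and early T cell receptor genes had no call, and their most abundant members Ldha (0.19), Cd2 (-0.01), Mcl1 (0.11), Hspa8 (0.03) and Junb (0.26) all overlapped. So did Xbp1 (0.08), Cd8b1 (-0.15) and the haemoglobin gene Hba-a2 (2.10), while Cd3g (0.12) lay slightly higher without overlap.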
